A study of Mus musculus with 6 samples.

Results

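The mitochondrial ribosomal protein genes, named Mrpl for the large and Mrps for the small subunit of the mitochondrial ribosome, were examined in mouse cultures labelled as female germline stem cells (FGSCs). Members were the protein-coding genes whose symbol is Mrpl or Mrps followed by a number, without pseudogenes. Of 78 such symbols in RefSeq, 77 were found in the expression table, 48 Mrpl and 29 Mrps, among 55401 genes in all. Mrpl57 and Mrpl58 were found through their older symbols, and Mrpl33 was not analysed here. All 77 members passed the filter of a mean of at least 1 FPKM, which 10661 genes passed. FPKM counts fragments relative to the length of the gene and the depth of the library, so that levels of different genes can be set side by side. RNA-seq compared 3 libraries of control cells without treatment with 3 libraries of cells given 1 μM metformin, a biguanide used against diabetes, for 24 h. Both groups carried the same C57BL/6 background, were past 20 passages, and grew on mitotically inactivated STO feeder cells, a mouse embryo fibroblast line. The labels name no genetic alteration in either group. The labels do not say whether the 3 libraries of a group came from separate cultures, so that p-values measure the spread between these libraries, which may be technical.

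The mitochondrial ribosome translates the messenger RNAs of mitochondrial DNA, which encode core subunits of the respiratory chain and ATP synthase. Its rRNAs come from mitochondrial DNA, whereas its proteins are encoded in the nucleus, made in the cytosol and imported. Many of these proteins have a counterpart in bacterial ribosomes, and the others are specific to mitochondria. Metformin itself is known as an inhibitor of respiratory complex I. The study profiled expression in FGSCs with and without metformin, and the comparison here asks whether the mRNAs of the mitochondrial ribosome differed between these cultures.

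Some promoters of these genes carry short motifs that the choice of members did not use. Promoter sequences from RefSeq (GRCm38.p6), running from 250 bases before to 50 bases after a gene's start, were matched for 68 of the 77 members, with 74 promoters. They were searched on both strands for AAGATGGC, a core of the YY1 motif, for CCGGAAGT, a core of the ETS family motif that GABP binds, and for GCGCATGCG, the motif of NRF1. YY1, GABP and NRF1 are transcription factors known for their role at nuclear genes of mitochondrial proteins. The sequences below are examples from members described further on, each with a log2 fold change above 0. Described members with a match that are not shown include Mrpl18 and Mrpl48 (ETS) and Mrpl35 (YY1), with log2 fold changes below 0. A link between motif and fold change was not tested. They are written along the strand of the gene, with the motif or its reverse complement in capitals.
Mrps18a, YY1, chr17:46111005-46111032, plus strand: ggtgcgttccAAGATGGCggccctcagg
Mrpl37, YY1, chr4:107066823-107066850, minus strand: tgcacgggcaAAGATGGCggcgtccagg
Mrps7, YY1, chr11:115604148-115604175, plus strand: gacagcggccAAGATGGCtgcccccgcg
Mrpl52, ETS, chr14:54426900-54426927, plus strand: ggccacgcccACTTCCGGttcccttgct
Mrpl10, NRF1, chr11:97041438-97041464, plus strand: ccagctccaCGCATGCGCatagcggcc
Mrps18b, NRF1, chr17:35916647-35916673, minus strand: acggcccgaCGCATGCGCactgggagc

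The YY1 letters were found in 12 of the 74 member promoters (16.2%), against 5.09% of the 9554 promoters of protein-coding genes that passed the filter and 2.75% of all 32851 promoters. In 8 members, among them Mrps18a, Mrpl37 and Mrps7, these letters ran along the gene's own strand and began 11 to 36 bases after its start. The ETS letters were found in 11 member promoters (14.9%), against 9.48% of the promoters of genes that passed and 3.89% of all. The NRF1 letters were found in 7 (9.46%), against 4.29% and 1.75%. At least one of these motifs was in 28 member promoters (37.8%), against 17.7% and 7.96%. The letters TATAAA, the core of the TATA box, were in 5 member promoters (6.76%), against 6.27% of the promoters of genes that passed and 13.6% of all. A match to these letters is a description of the sequence and not a measured binding site. The reverse complement of GCGCATGCG overlaps it in all but 1 base, so that some places match on both strands and were counted once per promoter.

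The members lie on 17 chromosomes, with 11 of them on chromosome 11. A protein-coding gene on the opposite strand started within 1000 bp of the start of 32 members (41.6%), against 1688 of the 9116 protein-coding genes that passed the filter (18.5%). One such pair consisted of members of both subunits, Mrps11 and Mrpl46, whose starts lie 412 bp apart. Mrpl36 started 29 bp from Ndufs6, which encodes a subunit of complex I, and Mrpl43 started 779 bp from Twnk, the mitochondrial DNA helicase. The 23 members that overlap a protein-coding gene include Mrpl18, which shares 645 bp with Tcp1 on the opposite strand. How strand was used in counting is not given in the sources used here, so that the fragments of such overlaps cannot be told apart.

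All libraries were of similar depth. The step that 1 fragment makes in the FPKM of short genes put the depth at 13400000 to 14040000 mapped fragments, and 3 fragments on 1 kb of exon were worth 0.214 to 0.224 FPKM. That limit covers counting error only. Total FPKM ranged from 317332 to 320754. The label of the cells was checked against markers. Of 6 germ cell markers none reached a mean of 1 FPKM, and Pou5f1, Dppa3 and Dazl were listed at 0 in all 6 libraries. The summed FPKM of these 6 markers ranged from 0.48 to 1.38 in control and from 0.33 to 0.93 in metformin libraries. Of 7 feeder or fibroblast markers none reached 1 FPKM, with sums of 0.32 to 0.59 in control and 0.34 to 0.48 in metformin libraries, and Lum was listed at 0. All 10 blood cell markers passed the filter, with Gata2 at a mean of 267 FPKM and Kit at 118 FPKM. Their sum was 775.5 to 789.2 FPKM in control and 797.2 to 808.5 FPKM in metformin libraries, without overlap. Most of that difference was Gata2, at 258 FPKM in control and 275 FPKM in metformin libraries. The 10 markers split into 5 above and 5 below 0 in their log2 fold changes. Gata2, Coro1a, Laptm5 and Vav1 were higher in every metformin library, and Lcp1 and Ptprc were lower. Thus 6 of the 10 markers (60%) were without overlap, against 17.0% of all genes tested. The part of these cells in the values of the mitochondrial ribosomal protein genes was not tested. The data therefore go against the label, and the cultures are called by it only as a name. In such bulk samples, fewer cells of a type and less RNA per cell cannot be told apart.

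All 77 mitochondrial ribosomal protein mRNAs were detected, most of them at moderate levels. The median member had a mean of 22.2 FPKM over the 6 libraries, with quartiles of 12.8 and 35.3 FPKM, against a median of 9.35 FPKM over all genes that passed the filter. Between 10 and 60 FPKM lay 57 of the 77 members, and 5 were under 5 FPKM. Levels ran from 1.07 FPKM for Mrpl23 to 144 FPKM for Mrps23, a ratio of 135. For comparison, the median of 75 cytosolic ribosomal protein genes was 131 FPKM.

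**Figure D1:**
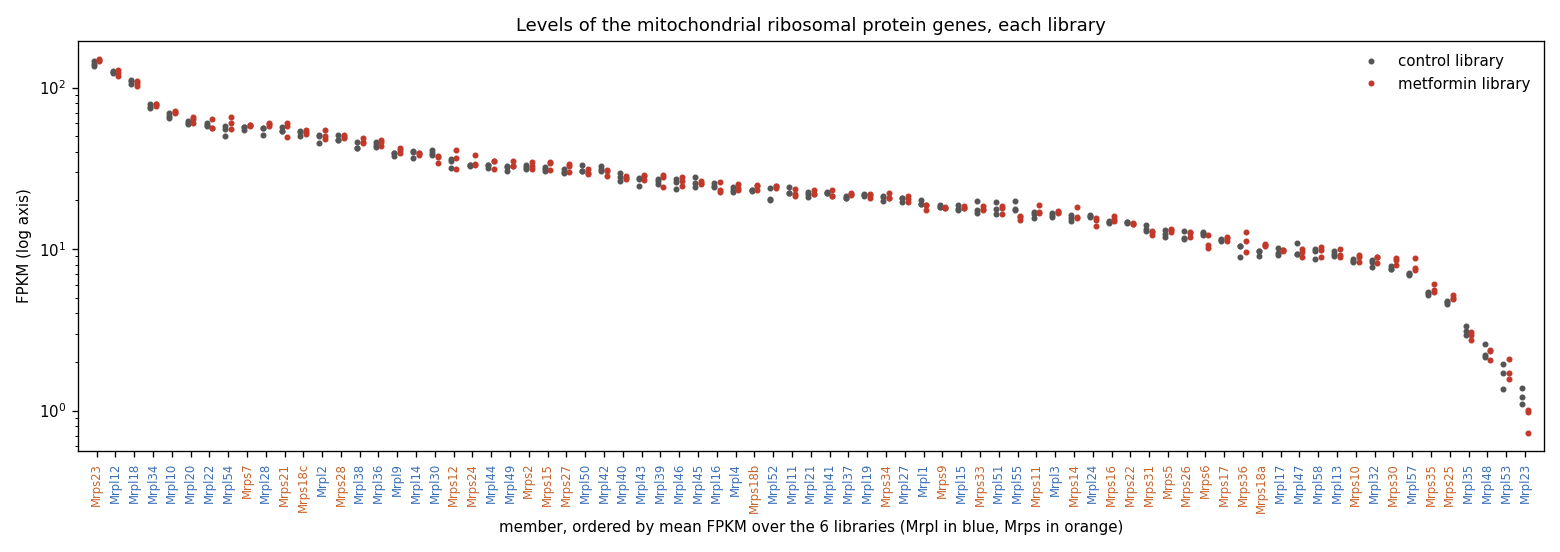
Level of each of the 77 members in FPKM (log axis) in 3 control and 3 metformin libraries, with members ordered by their mean and symbols coloured by subunit. The points of both groups lie close together for each member, and 57 of the 77 members lie between 10 and 60 FPKM, with 6 above and the rest below.

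The highest member was Mrps23, a small-subunit protein specific to mitochondria, at chr11:88204388-88211507 (GRCm38). Its level was 136.67, 139.88 and 146.29 FPKM in control 1 to 3 and 149.67, 146.25 and 147.13 FPKM in metformin 1 to 3. Metformin 2 lay just below control 3, so that the groups overlapped, although the unadjusted p was 0.047 (limma, adjusted p = 0.455). Second was Mrpl12, the protein of the flexible stalk to which translation factors bind, at 124.64 ± 1.96 FPKM in control and 122.85 ± 5.84 FPKM in metformin libraries (SD, n = 3 each). Its log2 fold change was -0.02, with a 95% interval from -0.10 to 0.06, and the groups overlapped. Mrpl10, which anchors Mrpl12 at the base of the stalk, was at 67.27 ± 2.62 FPKM in control and 70.78 ± 1.12 FPKM in metformin libraries, below Mrpl12 in all 6 libraries. Mrpl18, a protein of the central protuberance, had a mean of 108 FPKM. The gene that overlaps it on the opposite strand, the chaperonin subunit gene Tcp1, stood at 152 FPKM. Mrpl34 followed at 77.7 FPKM and Mrpl20 at 61.9 FPKM, both large-subunit proteins with a bacterial counterpart. Together the 6 highest members held 25.7% of the summed member FPKM. The values of Mrps23, Mrpl12, Mrpl18, Mrpl34 and Mrpl10 did not overlap from one to the next in this order, whereas those of Mrpl10 and Mrpl20 did.

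The 4 lowest members were Mrpl23 (1.07 FPKM), Mrpl53 (1.72 FPKM), Mrpl48 (2.28 FPKM) and Mrpl35 (3.01 FPKM). Each encodes a protein of the large subunit. Mrpl23 lines the exit of the peptide tunnel, and Mrpl48 is part of the central protuberance. Mrpl53 was at 1.70, 1.93 and 1.36 FPKM in control and at 1.71, 2.08 and 1.56 FPKM in metformin libraries, and overlaps Ccdc142 (1.19 FPKM) on the same strand.

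Some low levels stood beside near copies of the gene. The transcripts of each member were divided into all words of 32 bases and these were looked for in the rest of the genome (NCBIM37). At least 10% of the words were found elsewhere for 26 members, at least 50% for 6 members, and none for 30. For Mrpl23, 77.0% of the words were found elsewhere, all of them in the pseudogene Mrpl23-ps1, which was at 1.42 ± 0.51 FPKM in control and 2.43 ± 0.21 FPKM in metformin libraries. For Mrps36, 85.6% were found elsewhere, with 75.6% in Mrps36-ps1 at 2.32 FPKM. For Mrpl48 the share was 14.7%, with 7.86% in its pseudogene Mrpl48-ps, which was at 23.0 FPKM, above Mrpl48 itself. How fragments that match several places were counted is not given in the sources used here, so that the levels of these members are uncertain.

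**Figure D2:**
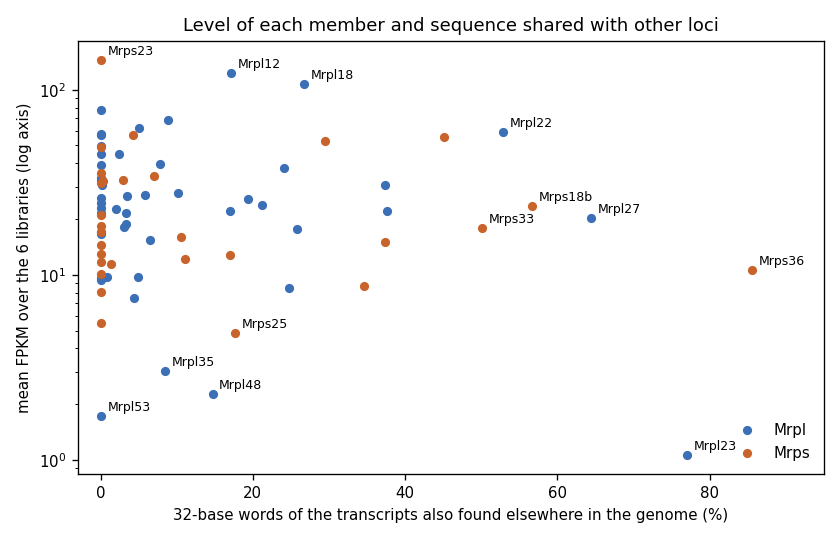
Mean FPKM of each member (log axis) against the percentage of its 32-base words that occur elsewhere in the genome, with Mrpl in blue and Mrps in orange. Mrpl23, at 1.07 FPKM, has 77.0% of its words elsewhere, whereas Mrpl53 is also low and has none, and Mrps36, with the highest share of 85.6%, stands at 10.6 FPKM.

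Between metformin and control, no mitochondrial ribosomal protein gene passed the test. With limma on log2(FPKM + 1), 0 of the 77 members had an adjusted p under 0.05, and the lowest adjusted p was 0.327, against 3 of 10661 genes called overall (0.0281%). At an unadjusted p under 0.05 there were 11 members (14.3%), against 10.8% of all genes tested. Of these, 8 were higher with metformin, where the share over all genes was 6.03%, and 3 were lower, where it was 4.81%. The split was 5 higher and 4 lower after rescaling to TPM, and 6 and 5 after quantile normalization. In 16 members (20.8%) the 3 metformin values lay all above or all below the 3 control values, which held for 17.0% of all genes. These were 10 higher members, beside 8.89% of all genes, and 6 lower members, beside 8.10%.

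The differences were small in both directions. Log2 fold changes of the members ranged from -0.23 to 0.18, with a median of 0.03, against 0.0041 over all genes tested. The lower end was Mrpl23, a gene near 1 FPKM, whose value was -0.41 with a pseudocount of 0.1. They were above 0 in 53 of the 77 members (68.8%), against 52.3% of all genes, and in 49 to 52 members when libraries were rescaled to TPM, by quantiles or by their median. The 5th and 95th percentiles were -0.10 and 0.14 for the members, and -0.13 and 0.16 for all genes. With a pseudocount of 1, the 95% interval of every member lay within 0.5 of 0 on this scale, and the interval held 0 for 66 of them. The lowest bound was -0.47, for Mrpl23. This scale understates fold changes of low genes, so that the limit of 0.5 need not hold for them with a smaller pseudocount. The distance from the estimate to either end of its interval had a median of 0.10. Within a group, the median coefficient of variation of a member was 3.73% in control and 4.40% in metformin libraries.

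**Figure D3:**
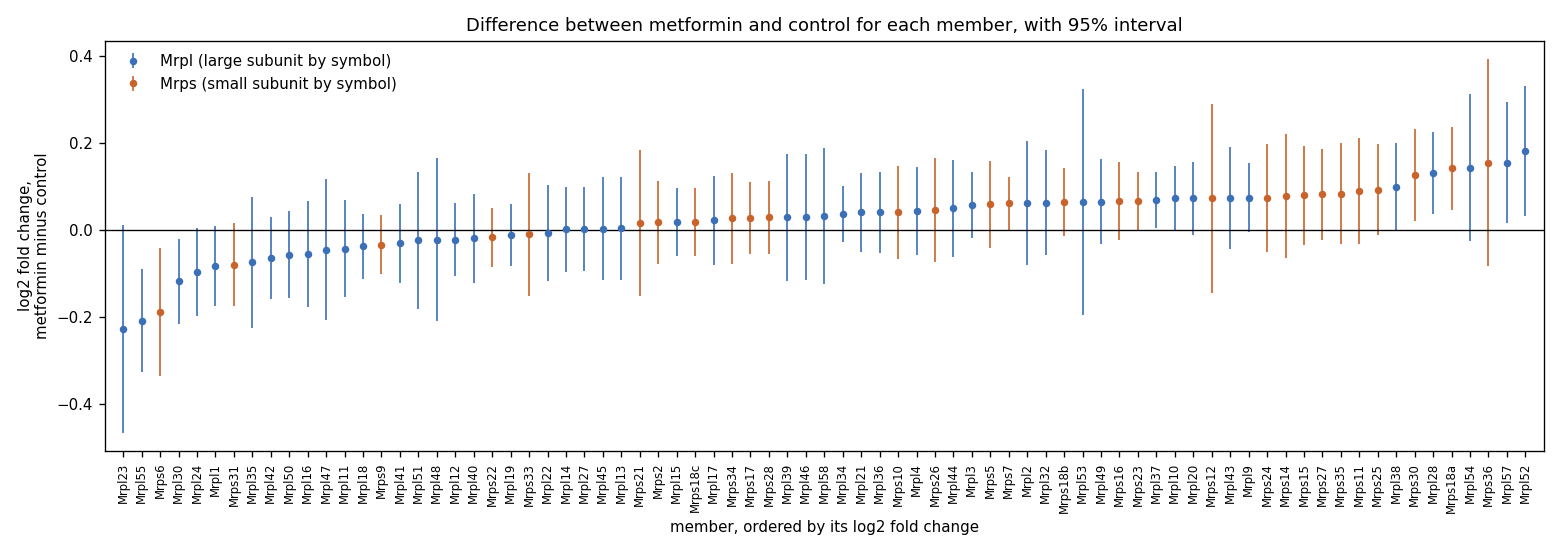
Log2 fold change (metformin minus control, on log2(FPKM + 1)) of each of the 77 members in order of size, with its 95% interval from limma, Mrpl in blue and Mrps in orange. The values run from -0.23 for Mrpl23 to 0.18 for Mrpl52, and the intervals of 66 members hold 0.

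Among the members with higher values, Mrpl52 had the largest difference. This protein of the large subunit has no bacterial counterpart, and its gene lies at chr14:54426909-54429756. It was at 20.38, 23.92 and 19.99 FPKM in control and at 24.48, 24.65 and 23.98 FPKM in metformin libraries. All treated values were higher, though metformin 3 exceeded control 2 by little. The log2 fold change was 0.18 with a standard error of 0.06 (limma, adjusted p = 0.393). Mrps18a was at 9.78, 9.78 and 9.05 FPKM in control and at 10.48, 10.80 and 10.60 FPKM in metformin libraries, with a log2 fold change of 0.14 ± 0.04 (SE, limma, adjusted p = 0.350). Mrps30 was at 7.57, 7.87 and 7.56 FPKM in control and at 8.54, 8.02 and 8.85 FPKM in metformin libraries, with a log2 fold change of 0.13. Both are named for the small subunit, but structures of the mammalian ribosome place them in the large one. Mrpl57, another protein specific to mitochondria, was at 6.91, 7.01 and 7.14 FPKM in control and at 7.64, 8.76 and 7.45 FPKM in metformin libraries, where metformin 2 stood above the rest. Mrpl28 was at 50.92, 55.82 and 55.81 FPKM in control and at 60.72, 58.13 and 59.32 FPKM in metformin libraries, a log2 fold change of 0.13. It has a bacterial counterpart in the large subunit.

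Mrpl37 and Mrps7 differed by less, with narrow spreads. Mrpl37, specific to mitochondria, was at 21.26, 20.72 and 20.83 FPKM in control and at 22.35, 21.74 and 21.99 FPKM in metformin libraries. Mrps7, which contacts the rRNA in the head of the small subunit, was at 54.22, 56.98 and 56.60 FPKM in control and at 58.42, 58.68 and 58.08 FPKM in metformin libraries. Their log2 fold changes were 0.07 and 0.06, and every treated value was above every control value. Another 3 members were higher in every metformin library with an unadjusted p above 0.05. Without control 1 the value of Mrps7 was 0.04. Mrps36 and Mrpl54 had larger log2 fold changes, 0.16 and 0.14, but their groups overlapped. Without metformin 1 these values were 0.06 and 0.08. Leaving out control 1 gave 0.09 for Mrps36 and 0.18 for Mrpl54. Leaving out metformin 2 gave 0.26 and 0.20, and leaving out control 3 gave 0.19 and 0.09. Mrps36, which is now placed in the 2-oxoglutarate dehydrogenase complex and not in the ribosome, was at 8.96, 10.41 and 10.38 FPKM in control and at 12.81, 9.55 and 11.26 FPKM in metformin libraries.

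Among the members with lower values, Mrpl23 had the largest difference and Mrpl55 the lowest p. Mrpl55 encodes a large-subunit protein with a bacterial counterpart, at chr11:59202486-59206134. It was at 19.76, 17.71 and 17.55 FPKM in control and at 16.10, 15.89 and 15.17 FPKM in metformin libraries. Every treated value lay below every control value, and its adjusted p of 0.327 was the lowest of all members (limma, log2 fold change -0.21 ± 0.05, SE). Mrps6, a protein of the small subunit's platform, was at 12.65, 12.29 and 12.83 FPKM in control and at 10.60, 12.14 and 10.11 FPKM in metformin libraries, with metformin 2 close to control. Its gene overlaps Slc5a3, which was at 1.59 FPKM, on the same strand. Mrpl30 was at 38.32, 40.84 and 39.19 FPKM in control and at 34.26, 37.64 and 36.97 FPKM in metformin libraries, a log2 fold change of -0.12, or -0.08 without metformin 1. Another 3 members, Mrpl23, Mrpl24 and Mrpl1, were lower in every metformin library with an unadjusted p above 0.05. Mrpl23 was at 1.22, 1.37 and 1.10 FPKM in control and at 0.98, 1.01 and 0.73 FPKM in metformin libraries, while its pseudogene Mrpl23-ps1, which shares most of its sequence, was higher in every metformin library (log2 fold change 0.52, limma, adjusted p = 0.348). With 3 libraries a group, the smallest p of an exact two-sided permutation test is 0.1, and 16 members reached that value.

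The Mrps18 genes encode related proteins in different places of the ribosome, Mrps18a in the large and the others in the small subunit. Mrps18c had the highest level at 52.6 FPKM, followed by Mrps18b at 23.6 FPKM and Mrps18a at 10.1 FPKM, an order that held in all 6 libraries. The log2 fold change was 0.06 for Mrps18b, with a 95% interval from -0.01 to 0.14, and 0.02 for Mrps18c, from -0.06 to 0.10. Of the words of Mrps18b, 56.7% were found elsewhere in the genome, against 29.5% for Mrps18c and none for Mrps18a.

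Large and small subunit were compared as groups. The median log2 fold change over the 48 Mrpl genes was 0.02, with 29 above and 19 below 0, and 4 higher and 2 lower at an unadjusted p under 0.05. For the 29 Mrps genes the median was 0.06, with 24 above and 5 below 0, and 4 higher and 1 lower. Over all genes tested, 52.3% were above 0, 6.03% were higher and 4.81% lower at such a p. Without metformin 1 the median was 0.015 for Mrpl and 0.038 for Mrps genes, and without control 1 it was 0.013 and 0.042. For the Mrpl genes it was 0.014 without control 3. The medians differed by -0.041 (large minus small), and by -0.027 with Mrps30 and Mrps18a placed in the large subunit and Mrps36 left out. Without metformin 1 the difference of the medians was -0.023. Summed over members, the large subunit held 1487 ± 8.36 FPKM in control and 1510 ± 28.1 FPKM in metformin libraries (SD, n = 3 each), and the small subunit 763 ± 16.4 and 790 ± 16.3 FPKM. Groups overlapped in both sums. The ratio of large to small was 1.95 ± 0.031 in control and 1.91 ± 0.011 in metformin libraries, with overlap. All members together made up 0.706% of the FPKM of a control library and 0.719% of a metformin library.

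**Figure D4:**
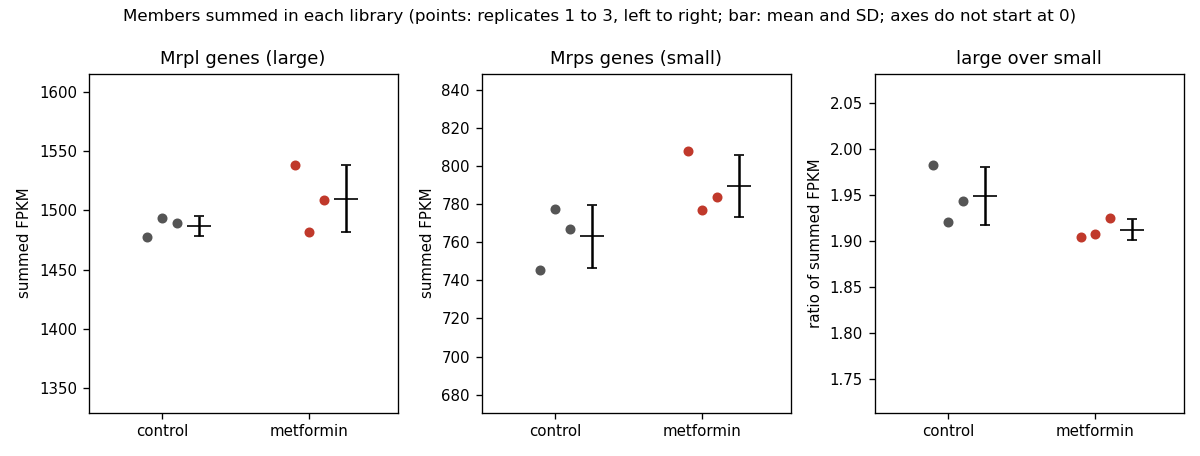
Summed FPKM of the 48 Mrpl and the 29 Mrps genes, and their ratio, in each control and metformin library (points), with the mean and SD of each group (bars) on axes that do not start at 0. In each panel the values of both groups overlap, and metformin 1 has the highest sum of either subunit.

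The libraries of a group differed among themselves. The median deviation of the members from their own mean was -0.03, 0.0076 and -0.02 on the log2 scale in control 1 to 3 and 0.04, -0.0064 and 0.0090 in metformin 1 to 3. Metformin 1 held the highest value of 28 members and control 1 the lowest of 24, whereas metformin 2 lay below control 2. Control 1 was the library of lowest depth, at 13400000 fragments, and metformin 1 the deepest, at 14040000, and the part of depth in these values was not tested.

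By place in the ribosome, the 29 large-subunit proteins with a bacterial counterpart had a median log2 fold change of 0.0031, with 1 higher and 2 lower at an unadjusted p under 0.05. By the nomenclature of ribosomal proteins, Mrps18a was counted as specific to mitochondria, although the related Mrps18c was counted with a bacterial counterpart. The 21 large-subunit proteins counted as specific to mitochondria, Mrps30 and Mrps18a among them, had a median of 0.05, with 5 higher and none lower. These 5 were Mrpl52, Mrpl57, Mrps18a, Mrps30 and Mrpl37, beside 6.03% of all genes that were higher and 4.81% that were lower at such a p. Medians were 0.05 for the 16 small-subunit proteins with a bacterial counterpart and 0.06 for the 10 specific to mitochondria. Whether the groups differ was not tested. Of the 8 proteins listed around the exit tunnel, Mrpl23 and Mrpl24 were lower without overlap, as were 8.10% of all genes, and the median was -0.0019. Mrpl23 is the member with 77.0% of its words in a pseudogene. The 5 proteins listed for the stalk and its base had a median of 0.06. The 6 listed for the central protuberance (Mrpl18, Mrpl38, Mrpl40, Mrpl46, Mrpl48 and Mrpl58) had one of 0.0055. No member of either list was without overlap, and these lists of places may leave out other members.

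**Figure D5:**
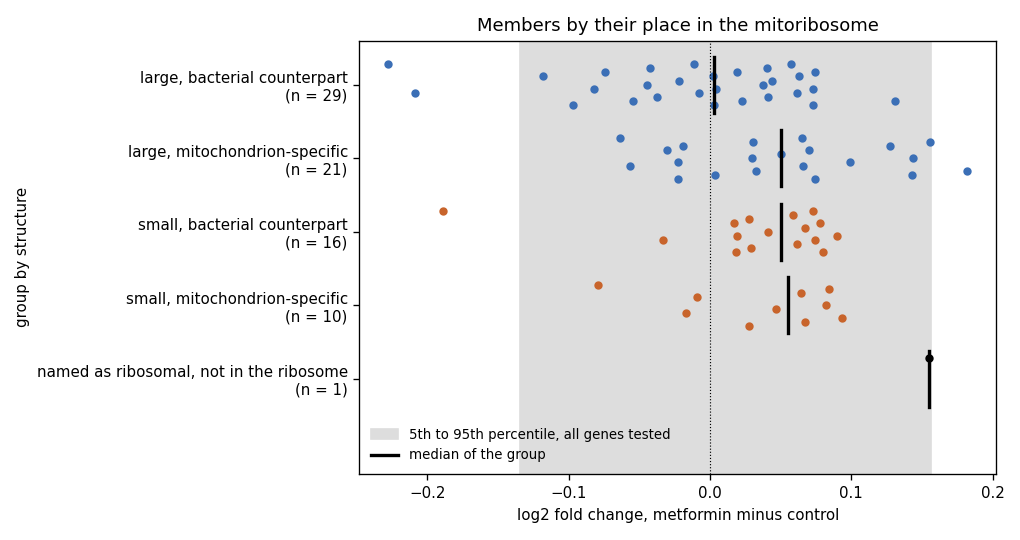
Log2 fold change (metformin minus control) of each member, grouped by subunit in the structure and by whether the protein has a bacterial counterpart, with the median of each group (black bar) and the 5th to 95th percentile of all genes tested (grey). Most members lie inside the grey band, and the medians lie between 0.0031 and 0.06, apart from Mrps36, which stands alone at 0.16.

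Members with 10% or more of their words elsewhere in the genome were compared with the others. Such words need not come from a copy of the gene. For Mrps25, 17.7% were found elsewhere, but 0.13% in its best-matching gene, where words in up to 20 places were counted. Of the 51 members with under 10% of their words elsewhere, 10 had an unadjusted p under 0.05 (19.6%) and the median log2 fold change was 0.04. Of the 26 members with more, 1 had such a p (3.85%) and the median was 0.01. That member was Mrpl30. Over all genes tested the share was 10.8%, and the difference between these sets of members was not tested.

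Other genes of the mitochondrial ribosome, its assembly and translation, and of mitochondrial transcription and its control held no call. Of 64 genes in 4 related lists, 61 were tested, 0 had an adjusted p under 0.05, and 4 were higher and 4 lower at an unadjusted p under 0.05 (13.1%, against 10.8% of all genes), with a median log2 fold change of 0.0090. Mtrfr was not matched in the table, and Fastkd2 and Ppargc1a were below the filter. Among 5 further proteins of the mitochondrial ribosome, Ptcd3 of the small subunit was at 17.20 ± 0.34 FPKM in control and 15.96 ± 0.19 FPKM in metformin libraries (SD, n = 3 each), without overlap. Dap3, which binds GTP in the small subunit, was at 6.93 and 7.06 FPKM, and Gadd45gip1 of the large subunit at 16.8 and 15.9 FPKM, with overlap.

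The 27 assembly and rRNA modification genes tested held 1 gene with an unadjusted p under 0.05 (3.70%, against 10.8% of all genes). This was Tefm, the mitochondrial transcription elongation factor, at 11.6 ± 0.73 FPKM in control and 13.1 ± 0.63 FPKM in metformin libraries. Among the 18 translation factors and related proteins tested, 4 had such a p (22.2%, against 10.8%). The initiation factor gene Mtif2 was lower at 9.90 ± 0.14 and 9.18 ± 0.36 FPKM, and Slirp, the RNA-binding partner of Lrpprc, was lower at 12.0 ± 0.26 and 10.8 ± 0.33 FPKM. The release factor gene Mtrf1 was higher at 3.31 ± 0.18 and 3.97 ± 0.45 FPKM, and Tsfm, which recharges the elongation factor Tufm, was higher at 21.3 ± 0.53 and 22.7 ± 0.54 FPKM. Tufm itself was at 43.6 FPKM in both groups.

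Of the 11 genes of mitochondrial transcription and its control that were tested, 2 had an unadjusted p under 0.05 (18.2%, against 10.8% of all genes). Gabpa, a subunit of GABP, was at 21.6 ± 0.37 FPKM in control and 20.2 ± 0.75 FPKM in metformin libraries. Myc was at 173 ± 2.71 and 188 ± 2.06 FPKM, with a log2 fold change of 0.12 (limma, adjusted p = 0.283). Tfam, which packages mitochondrial DNA and starts its transcription, was at 21.3 and 22.1 FPKM, with overlap. The rRNAs of the ribosome itself were at 1422 ± 15.4 and 1392 ± 29.8 FPKM for mt-Rnr1 of the small subunit and at 681 ± 14.4 and 661 ± 3.67 FPKM for mt-Rnr2 of the large subunit, with overlap in both. Since the kit selects polyadenylated RNA, these rRNA values are no measure of rRNA amount.

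Genes of other large assemblies gave the following values. Of the 75 cytosolic ribosomal protein genes, 6 were higher and 4 lower at an unadjusted p under 0.05 (13.3%), 21.3% were without overlap between groups, 37 were above 0, and the median log2 fold change was -0.00055. Of 79 nuclear genes of respiratory complexes tested, 6 were higher and 5 lower (13.9%), 17.7% were without overlap, 40 were above 0, and the median was 0.0003. For the 77 mitochondrial ribosomal protein genes, 14.3% had such a p, 20.8% were without overlap, 53 were above 0 and the median was 0.03. Over all genes tested, these shares were 10.8% for the p and 17.0% for no overlap. None of the genes in these sets had an adjusted p under 0.05, and the differences between the sets were not tested.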

How the data were processed

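RNA-seq of 3 control and 3 metformin libraries was analysed. The deposited table of the authors held FPKM values of 55401 Ensembl genes, rounded to 2 decimals, with positions on GRCm38. The submitters' processing notes name HISAT2 and mm9, and the labels and the methods name different library kits. The counting tool and its use of strand are not given in the sources used here. Symbols were found for 32589 gene identifiers, and 76 of the 77 members started within 5000 bp of their RefSeq start. Members and lists were chosen with earlier results of these data known.

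Values were compared as log2(FPKM + 1) where the mean was at least 1 FPKM, with limma 3.58.1 (R 4.3.3; lmFit, eBayes with trend), two-sided, with Benjamini-Hochberg adjustment over all 10661 genes and a threshold of 0.05. Fold changes on this scale understate those of low genes. The fit was tested on simulated data. Depth came from single-exon genes under 400 bp, whose values lay within 0.1 of whole fragments. Copies were searched with words of 32 bases (Python 3.11.15, numpy 2.4.6, pandas 2.3.3), and words in up to 20 places were used to name a copy. Exact permutation tests used scipy 1.17.1, and figures were drawn with matplotlib 3.10.9.

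Named members were those called, the 6 with the largest positive and the 6 with the largest negative log2 fold changes, those with an unadjusted p under 0.05 and no overlap, the 6 highest and 4 lowest by level, and Mrps18a, Mrps18b, Mrps18c, Mrps30, Mrps36 and Mrpl12. From related lists, genes with an unadjusted p under 0.05 and no overlap were named, with Dap3, Gadd45gip1, Tufm and Tfam. Other genes were named after their values were seen.

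The alternatives tried were TPM, a filter at a mean FPKM of 10, no filter, a pseudocount of 0.1, quantile normalization and median centring. Further ones were no trend, each gene's own spread, a replicate block, each library left out, and the subunits by structure. Members with overlaps, or with 10% or more of their words elsewhere, were also left out. Protein sequences were not used here.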

Additional observations from a re-analysis of the deposited data

How the results depend on the processing

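No member had an adjusted p under 0.05 in any of the 15 alternative fits, where the lowest was 0.212. The number of members higher at an unadjusted p under 0.05, 8 in the report, was 5 after rescaling to TPM, 5 with each gene's own spread and 3 to 11 when one library was left out, the lowest without control 1. The number lower, 3 in the report, was 5 after quantile normalization, 1 with each gene's own spread and 1 to 3 with one library left out. Members without overlap numbered 22 to 28 with one library left out, where fewer libraries make overlap less likely, against 16. The difference of the medians, large minus small, of -0.041 was -0.052 to -0.023 with one library left out, -0.027 by structure and -0.027 without the members that have 10% or more of their words elsewhere, an alternative chosen after seeing the data. The count of 8 related genes was 5 to 8 with one library left out.

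No shared deviation by replicate number was seen: deviations of same-numbered libraries correlated at -0.032, 0.018 and 0.048. Such values do not show that the libraries were unpaired. With a replicate block, 5 members were higher and 3 lower at an unadjusted p under 0.05.

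Of 384 values of the 26 named members under an alternative, 377 kept their direction and 7 changed sign. No named member had an adjusted p under 0.05 in any fit, so that no value could change sides there. The unadjusted p did cross 0.05. For Mrpl37 it was 0.037 in the report, 0.053 after quantile normalization and 0.10 without control 2 (limma). For Mrps23 it was 0.047 in the report and 0.16 without control 1 (limma). The sign changed for 4 members close to 0. With one library left out, Mrpl12 ran from -0.056 to 0.012 (above 0 without metformin 2) and Mrpl48 from -0.059 to 0.035 (above 0 without control 2, and at 0.024 without metformin 3). Mrpl53 ran from -0.019 to 0.14 (below 0 without control 3, and at -0.010 without metformin 2), and Mrps18c from -0.0073 to 0.039 (below 0 without control 1, and at -0.0018 without metformin 2). Mean levels were 124 FPKM for Mrpl12, 52.6 FPKM for Mrps18c, 2.28 FPKM for Mrpl48 and 1.72 FPKM for Mrpl53. The cause of these changes was not tested. Separately, a level near 1 FPKM, such as that of Mrpl23, rests on few fragments.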
